A study of Mus musculus with 6 samples.

Results

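The small leucine-rich proteoglycans are secreted matrix proteins built around a run of leucine-rich repeats. The genes described here are Dcn (decorin), Bgn (biglycan), Aspn (asporin), Lum (lumican), Fmod (fibromodulin), Prelp (proline/arginine-rich end leucine-rich repeat protein) and Ogn (osteoglycin, also called mimecan). They were found by symbol, and all 7 are among the 27998 genes of the count table. Their transcripts were followed across fibroblasts, mural cells, mesothelium, endothelium and leukocytes of mouse lung.

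The cells came from lungs of SMA-GFP;Tbx4cre;RosaTdTomato mice, in which a smooth muscle actin reporter drives GFP and Cre from the lung mesenchyme gene Tbx4 switches on tdTomato (Tm). Cells without Epcam, CD31 and CD45 on their surface were sorted as SMA+Tm+, as SMA-Tm+ or as SMA-Tm-. They came from normal lung (day 0) or from lung 21 days after bleomycin, an injury that leads to fibrosis. The labels give 1 sample for each of the 3 gates at either time, 6 in all, with no replicate, and every mouse carries the same 3 alleles. Tm marks cells by their Tbx4 lineage and GFP by actin promoter activity, so a gate is not a cell type. The table pools these samples under barcode suffixes 1 to 6, and no label used here ties a suffix to a gate or a day. Day and gate were therefore not compared, and the pooled table is 1 sample: no value below has a replicate check, and its interval, at 95%, covers counting error only.

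Small leucine-rich proteoglycans bind fibrillar collagens and set the diameter and spacing of the fibrils. Decorin, biglycan and asporin form class I of the family, with chondroitin or dermatan sulfate chains on decorin and biglycan and none on asporin. Fibromodulin, lumican and PRELP form class II, where fibromodulin and lumican can carry keratan sulfate, and osteoglycin belongs to class III. Decorin, biglycan, asporin and fibromodulin are also known to bind TGF-beta, and in lung these genes are known as products of fibroblasts.

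Fibroblasts were cells with 3 or more unique molecular identifiers (UMIs, which count captured RNA molecules) of Col1a2 and Col3a1 together and without the genes of another class. Of 2483 fibroblasts, 560 held a UMI of Hhip, 931 of Npnt and 315 of Pi16 and of no other of these gate genes. Another 233 held several gate genes and 444 held none. Against markers that took no part in the gates, the Hhip gate had 9 of 10 ductal myofibroblast markers at 50 CPM or more (CPM is the summed UMIs of a gene scaled to a class total of 1e+06). The Npnt gate had 10 of 10 markers of Col13a1 fibroblasts and the Pi16 gate 9 of 10 of Col14a1 fibroblasts. The Col14a1 fibroblast markers summed to 7127 CPM in the Pi16 gate, 4071 in cells with no gate gene and 3596 in cells of several gates. Cells with no gate gene and cells of several gates each had 8 of 10 of them at 50 CPM or more. The 47 mural cells had 10 of 10 pericyte and 4 of 7 smooth muscle markers at that level, and the 87 mesothelial, 593 endothelial and 5409 leukocyte cells had 10 of 10 of their own. Leukocytes and endothelium are present although the sort was set against CD45 and CD31. Median depth was 2439, 2892 and 3554 UMIs per cell in the Hhip, Npnt and Pi16 gates, 1829 in mural cells, 5063 in mesothelium, 1731 in endothelium and 2963 in leukocytes.

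Suffixes 1 and 4 held 540 and 1803 of the fibroblasts, and the other suffixes 29 to 42 each. Xist stood at 0.654 to 6.47 CPM in suffixes 1 to 3 and at 1466 to 1921 CPM in suffixes 4 to 6, and 4 Y-linked genes together at 301 to 323 and at 0 to 1.15 CPM, so the suffixes differ in the sex of the mice. Library, sex, day and sort gate cannot be told apart between suffixes. Of the barcode sequences, 55 occur under more than 1 suffix.

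Several members are genomic neighbours (GRCm38). Dcn (chr10:97479609-97518143, plus strand) and Lum (chr10:97565128-97572703, plus) lie 47 kb apart. Ecm2, Aspn (chr13:49544443-49567565, plus), Omd and Ogn (chr13:49608046-49624501, plus) follow each other on chromosome 13, with 40.5 kb between Aspn and Ogn. Prelp (chr1:133910304-133921414, minus) lies 2.3 kb from Optc and 116 kb from Fmod (chr1:134037254-134048277, plus), and Bgn is at chrX:73483602-73495933 (plus). The proximal promoters below include those of the neighbours Aspn and Ogn, which were highest in different fibroblast gates. The others are those of Bgn and Prelp, whose patterns over all classes correlated the most of any pair of members, though not among fibroblasts alone. Each is the 250 bases before the RefSeq start on GRCm38.p6, 5′ to 3′ on the gene's strand: Aspn chr13:49544193-49544442 (plus), Ogn chr13:49607765-49608014 (plus), Bgn chrX:73483351-73483600 (plus) and Prelp chr1:133921402-133921651 (minus). Capitals mark the TATA box letters TATAAA or the GC box letters GGGCGG on either strand.
Aspn: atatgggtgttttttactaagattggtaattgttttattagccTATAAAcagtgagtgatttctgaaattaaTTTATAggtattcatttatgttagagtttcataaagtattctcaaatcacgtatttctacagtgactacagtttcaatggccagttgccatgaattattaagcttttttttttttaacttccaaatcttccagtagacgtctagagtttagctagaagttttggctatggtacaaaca
Ogn: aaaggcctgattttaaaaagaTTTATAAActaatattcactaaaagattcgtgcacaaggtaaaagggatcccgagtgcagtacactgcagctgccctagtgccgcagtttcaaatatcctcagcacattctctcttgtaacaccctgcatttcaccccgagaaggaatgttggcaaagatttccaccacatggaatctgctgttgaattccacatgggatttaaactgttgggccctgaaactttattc
Bgn: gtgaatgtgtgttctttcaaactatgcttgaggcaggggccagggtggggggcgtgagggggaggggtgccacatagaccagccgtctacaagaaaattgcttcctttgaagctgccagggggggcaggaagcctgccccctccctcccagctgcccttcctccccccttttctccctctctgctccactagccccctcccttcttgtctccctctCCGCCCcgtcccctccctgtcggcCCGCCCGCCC
Prelp: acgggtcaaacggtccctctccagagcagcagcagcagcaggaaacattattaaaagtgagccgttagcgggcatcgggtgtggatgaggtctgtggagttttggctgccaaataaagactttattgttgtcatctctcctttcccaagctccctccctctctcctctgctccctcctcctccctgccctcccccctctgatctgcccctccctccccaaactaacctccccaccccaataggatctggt

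The Aspn window was 30% G and C, lower than all but 1.47% of 32851 such windows, whose median was 52.4%. It held TATAAA at 2 places, 207 and 178 bases before the start. The Ogn window was 42% G and C and held 2 matches that overlap on opposite strands, 229 and 227 bases before the start. Bgn had 64.4% G and C and 3 GGGCGG matches at 34, 10 and 6 bases, and Prelp 55.6% with neither motif. TATAAA occurred in 12.4% and GGGCGG in 32.7% of all windows. Promoters of 5 of the 7 members were matched in the RefSeq table. Fmod, at 51.2% G and C, held neither motif.

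Each fibroblast set had its own mix of the family. The 7 genes together made up 6761 CPM in the Hhip gate, 5958 in the Npnt gate, 10505 in the Pi16 gate and 7856 in fibroblasts with no gate gene. They stood at 2417 CPM in mural cells, 5381 in mesothelium, 192 in endothelium and 32.9 in leukocytes. The leukocyte level serves here as a guide to free RNA, and it differed by suffix. It was 107 and 122 CPM in leukocytes of suffixes 1 and 4 and 2.82 to 8.54 CPM in those of the other 4 suffixes. Leukocytes and endothelial cells with 3 or more UMIs of Col1a2 and Col3a1 together were left out, so this guide may be low. Mural and mesothelial cells had no such limit. In the Hhip gate no member dominated: Aspn made up 21.5% of the members' UMIs, Dcn 20.5%, Bgn 20.4%, Ogn 17.4% and Lum 14.6%. In the Npnt gate Bgn (40.5%), Ogn (32.7%) and Prelp (15.9%) led. Dcn made up 62.1% in the Pi16 gate, 51.4% in fibroblasts with no gate gene and 72.8% in mesothelium, and Bgn 51.9% in mural cells. UMIs at transcript ends count molecules, so levels of different genes were not divided by gene length.

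**Figure D1:**
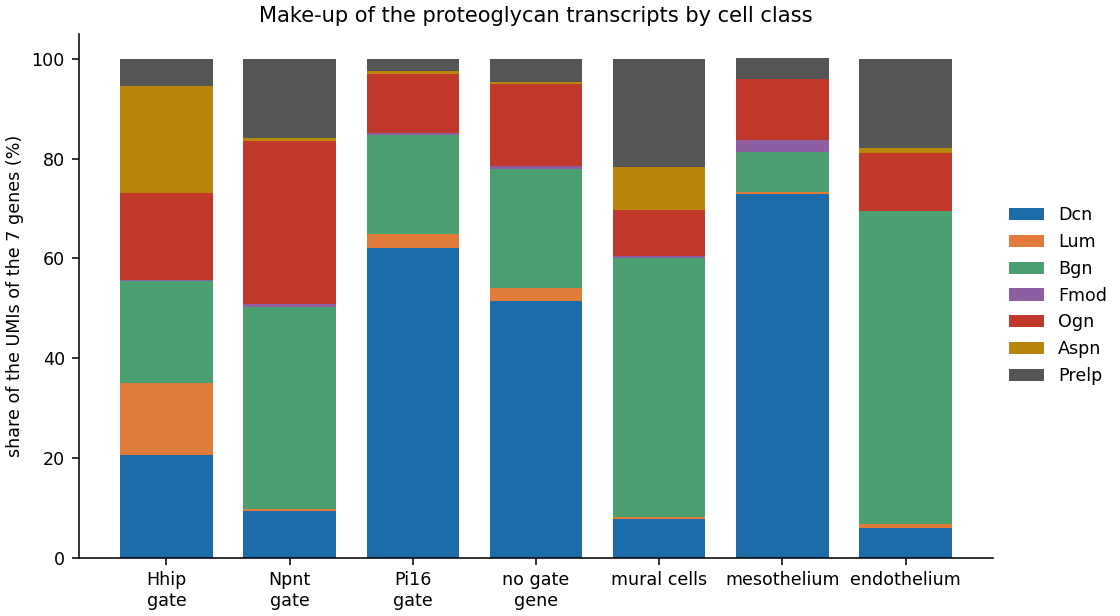
Share of the UMIs of the 7 proteoglycan genes (y axis, percent) held by each gene in 7 cell classes (x axis). Aspn and Lum take a visible share in the Hhip gate (21.5% and 14.6%), Bgn and Ogn fill most of the Npnt gate, and Dcn takes over 50% in the Pi16 gate, in fibroblasts with no gate gene and in mesothelium.

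Dcn, which encodes the collagen-binding and TGF-beta-binding proteoglycan decorin, was highest in the Pi16 gate. Its level was 6522 CPM (6375 to 6673) there, 4040 in fibroblasts with no gate gene (3935 to 4147), 3917 in mesothelium (3741 to 4098), 1389 in the Hhip gate (1329 to 1451), 559 in the Npnt gate (533 to 587) and 188 in mural cells (112 to 298). In this order only mesothelium and the cells with no gate gene had overlapping intervals. Of the 18 mural UMIs, 10 came from 1 cell, which the interval does not take into account. Endothelium (11.4 CPM) did not differ from leukocytes (9.51 CPM) beyond counting error when suffixes were pooled, and in suffix 6 it was higher (19.5 against 0.47 CPM, from 3 UMIs and 1 UMI). Dcn was the 7th most abundant transcript of the Pi16 gate, the 19th of mesothelium and the 241st of the Npnt gate. By suffix, the Pi16 gate stood at 8005 CPM in suffix 1 and 6147 in suffix 4, the Hhip gate at 1961 and 1156, and the Npnt gate at 973 and 560.4, with 40 CPM in the 27 Npnt cells of suffix 5. The order of the gates was the same in both suffixes, and no value of a gate reached that of the next.

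Dcn also divided cells within a set. All 315 cells of the Pi16 gate and all 87 mesothelial cells held a Dcn UMI, and 261 of the 315 (82.9%) held 10 or more. In the Npnt gate 629 of 931 cells held none and 54 (5.8%) held 10 or more. In the Hhip gate 182 of 560 held none and 60 held 10 or more. Leukocytes held a Dcn UMI in 3.01% of cells at a median depth of 2963 UMIs, and the Npnt gate in 32.4% at 2892. Most of these leukocytes belong to suffixes with few fibroblasts. Within suffix 4 the shares were 16.6% in leukocytes and 34.8% in the Npnt gate, or 2.23% and 20.2% after each cell was thinned to 1000 UMIs, and within suffix 1 they were 8.11% and 30.2%. Thinned Npnt cells with Dcn held Ogn less often (69.6% against 82.5% of cells without Dcn) and Prelp less often (46.2% against 62.9%), values with no test since cells of 1 sample are not replicates.

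Bgn, whose product biglycan is the closest relative of decorin, was high in every fibroblast set. It stood at 2414 CPM (2359 to 2469) in the Npnt gate, 2104 (2021 to 2190.3) in the Pi16 gate, 1877 (1806 to 1950.3) in cells with no gate gene and 1382 (1322 to 1444) in the Hhip gate, a range of under 2-fold. Cells of several gates held 2522 CPM (2426 to 2621), which overlaps the Npnt gate. Mural cells, at 1256 CPM (1041 to 1502), overlapped the Hhip gate, and 87.2% of them held a UMI. Of the 120 mural UMIs, 28 came from 1 cell, which the interval does not take into account. Mesothelium was lower, at 432 CPM (376 to 495). In every fibroblast set Bgn was lower in suffix 1 than in suffix 4, for example 1048 against 1496 CPM in the Hhip gate and 1734 against 2469.6 CPM in the Npnt gate. Bgn is the X-linked member, and suffix and sex cannot be told apart.

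Bgn had the highest level of the 7 members in endothelium. It stood there at 121 CPM (103 to 141) against 8.63 CPM (7.40 to 10.0) in leukocytes. Within suffixes 1 to 6 the endothelial level was 109, 103, 129, 136, 91.6 and 182 CPM, and the leukocyte level 21.1, 2.06, 0.816, 33.4, 1.5 and 0.47 CPM. Endothelium was higher in 6 of 6 suffixes, by 4.06-fold (2.72 to 5.91) in suffix 4 and 5.15-fold (2.65 to 9.82) in suffix 1. Leukocyte levels were highest in suffixes 1 and 4, which hold most fibroblasts, and endothelial levels there were within the range of the other suffixes. At 1000 UMIs per cell 8.6% of endothelial cells and 0.637% of leukocytes held Bgn, and within suffix 4 12.2% and 2.93%. Endothelial cells had 1 of 10 pericyte markers at 50 CPM or more, namely Mcam at 139 CPM. The others stood at 1.52 (Trpc6) to 22.8 CPM (Rgs5). The summed pericyte marker level, Mcam included, was 253 CPM in endothelium, against 7598 CPM in mural cells and 30.8 CPM in leukocytes. A part of pericyte RNA in the endothelial Bgn level was not tested. Prelp showed a smaller gap, with 34.1 CPM (24.9 to 45.7) in endothelium and 3.8 CPM (3.0 to 4.74) in leukocytes. By suffix the endothelial Prelp level was 18.1, 26.9, 41.3, 33.9, 50.6 and 19.5 CPM, higher than leukocytes in 6 of 6, but within counting error in suffixes 1 and 4. Ogn stood at 22 CPM in endothelium and 7.15 CPM in leukocytes. Ogn was higher in endothelium beyond counting error in suffix 3 (56.8 against 1.09 CPM, from 11 and 4 UMIs) and suffix 6 (19.5 against 1.41 CPM, from 3 UMIs each). The 11 UMIs of suffix 3 lay in 5 of 67 cells, and 1 endothelial cell held 7 Ogn UMIs, a count that only suffix 3 can hold. It was not higher beyond counting error in suffixes 1, 2 and 4, and endothelium of suffix 5 held 0 UMIs.

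**Figure D2:**
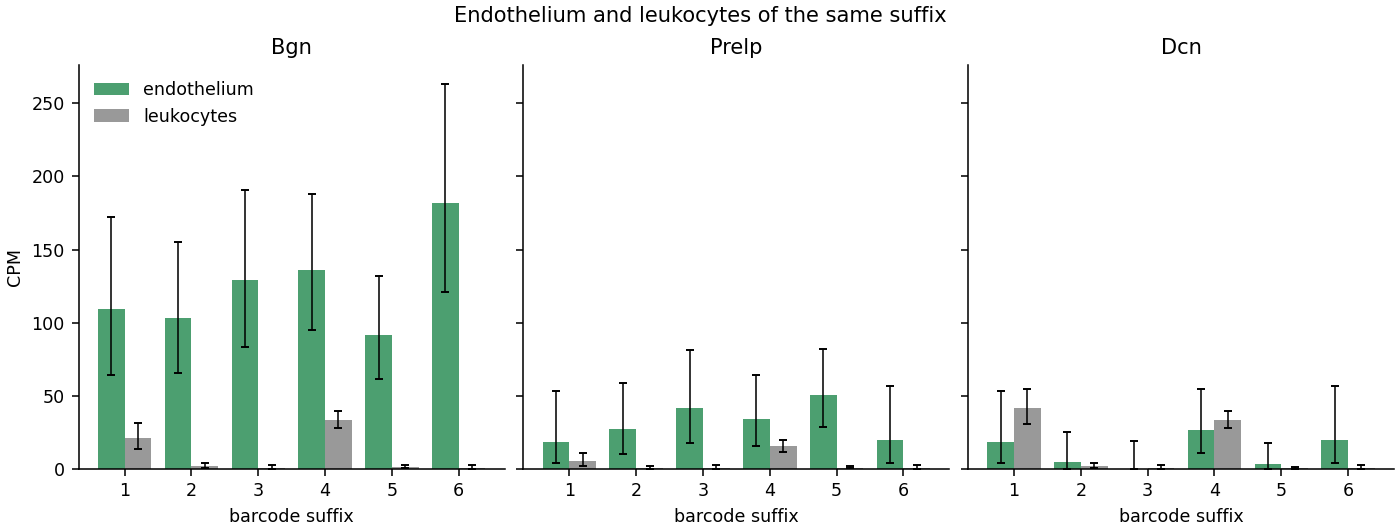
CPM (y axis) of Bgn, Prelp and Dcn in endothelium (green) and leukocytes (grey) of each barcode suffix (x axis), with exact 95% Poisson intervals. Bgn sits at 91.6 to 182 CPM in endothelium of the 6 suffixes. Dcn in endothelium lies below leukocytes in suffixes 1, 3 and 4, each within counting error. It lies above them in suffixes 2, 5 and 6, beyond counting error in suffix 6 alone.

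Aspn, whose product asporin carries no glycosaminoglycan chain and binds collagen and TGF-beta, was concentrated in the Hhip gate. It stood at 1454 CPM (1393 to 1518) there, with 1715 CPM in suffix 1 and 1377 in suffix 4. Mural cells held 209 CPM (128 to 323), from 11 of 47 cells. The Pi16 gate held 73.1 CPM (58.3 to 90.7), cells with no gate gene 44.4 (34.1 to 57.0) and the Npnt gate 25.8 (20.4 to 32.2). Mesothelium, at 2.09 CPM from 1 UMI, and endothelium, at 2.28 CPM, did not differ from leukocytes (1.28 CPM) beyond counting error. The suffixes of the Hhip gate lay above every suffix of every other fibroblast set, the nearest being the Pi16 gate of suffix 1 at 192 CPM against 49.3 CPM in its suffix 4. Aspn was the 105th most abundant transcript of the Hhip gate and held a UMI in 74.1% of its cells (57.3% at 1000 UMIs) against 0.481% of leukocytes (0.075%), and within suffix 4 in 74.2% against 2.23%. Of the cartilage and tendon markers, Scx stood at 75.4 CPM in the Hhip gate and the other 6 in the table were at 0 UMIs.

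Lum, which encodes the keratan sulfate proteoglycan lumican, shared the Hhip gate as its highest class. It stood at 989 CPM (938 to 1042) there, with 955 CPM in suffix 1 and 1007 in suffix 4. The next levels were 282 CPM (252 to 315) in the Pi16 gate and 204 (181 to 229) in cells with no gate gene. The Npnt gate (26.8 CPM, 21.3 to 33.3), mesothelium (23.0, 11.5 to 41.1) and mural cells (10.5, from 1 UMI) did not differ beyond counting error. Dcn, 47 kb from Lum, was 4.70-fold lower in the Hhip than in the Pi16 gate where Lum was 3.51-fold higher. Of 543 Hhip cells thinned to 1000 UMIs, 191 held both Lum and Aspn (35.2%, where the product of the shares is 31.0%), and Aspn was in 65.0% of cells with Lum and 48.2% of those without.

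Fmod, the collagen-fibril regulator fibromodulin, was the scarcest member over all fibroblasts together, at 34 CPM. In the Npnt gate Lum and Aspn were as scarce within counting error, and in mesothelium they were scarcer. Fmod was the only 1 of the 7 with its highest level in mesothelium. Its level was 129.5 CPM (99.3 to 166) in mesothelium, from 62 UMIs in 40 of the 87 cells, and 122 CPM in the 54 mesothelial cells of suffix 4. It was 50.9 CPM (39.7 to 64.2) in cells with no gate gene, 33.3 (27.2 to 40.5) in the Npnt gate, 28.2 (19.3 to 39.8) in the Pi16 gate and 7.61 (3.8 to 13.6) in the Hhip gate. The Hhip gate stood at 18.2 CPM in suffix 1 and 3.83 CPM in suffix 4. The intervals of the cells with no gate gene, the Npnt gate and the Pi16 gate each overlapped the next. Endothelium held 0 UMIs, which allows up to 2.28 CPM, and leukocytes 0.394 CPM. At 1000 UMIs per cell 13.8% of mesothelial cells and 0.075% of leukocytes held Fmod, and within suffix 4 18.5% and 0.418%.

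Prelp, whose product anchors collagen to basement membranes, was highest in the Npnt gate. It stood at 950 CPM (916 to 985) there, with 993, 917 and 1332 CPM in suffixes 1, 4 and 5. Cells of several gates held 645 CPM (597 to 696) and mural cells 523 CPM (388 to 689.9), which overlap, and 59.6% of mural cells held a UMI. Without suffix 4 the mural level was 254 CPM, below that of the Hhip gate. The Hhip gate (363 CPM, 333 to 396) and cells with no gate gene (357, 326 to 389.7) did not differ beyond counting error, nor did the Pi16 gate (256, 228 to 288) and mesothelium (217, 178 to 263). The exons of Prelp overlap the antisense gene Gm15851, which had at most 1 UMI in any fibroblast set. No source used here says if the counting used strand.

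Ogn, the class III member osteoglycin, was high in every fibroblast set and highest in the Npnt gate. It stood at 1949 CPM (1899 to 1999) there, at 1283 (1224 to 1344) in cells with no gate gene, 1239 (1175 to 1305) in the Pi16 gate and 1175 (1120 to 1233) in the Hhip gate, of which each overlapped the next after the Npnt gate. Mesothelium held 660.1 CPM (589 to 737) and mural cells 219.8 CPM (136 to 336), from 21 UMIs in 5 cells. In suffixes 1 and 4 the Npnt gate stood at 3278 and 1784 CPM, the Pi16 gate at 1926 and 1017 and the Hhip gate at 1946 and 891, so the Npnt gate was highest within either suffix. Ecm2, also of the chromosome 13 cluster, did not share this order. It stood at 275, 58.5 and 113 CPM in the Hhip, Npnt and Pi16 gates, the order of Aspn. Omd stood at 4.84, 11.1 and 17.6 CPM in these gates, from only 7, 34 and 20 UMIs. Aspn and Ogn lie inside the gene Cenpp on the other strand, which had at most 1 UMI in any fibroblast set.

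**Figure D3:**
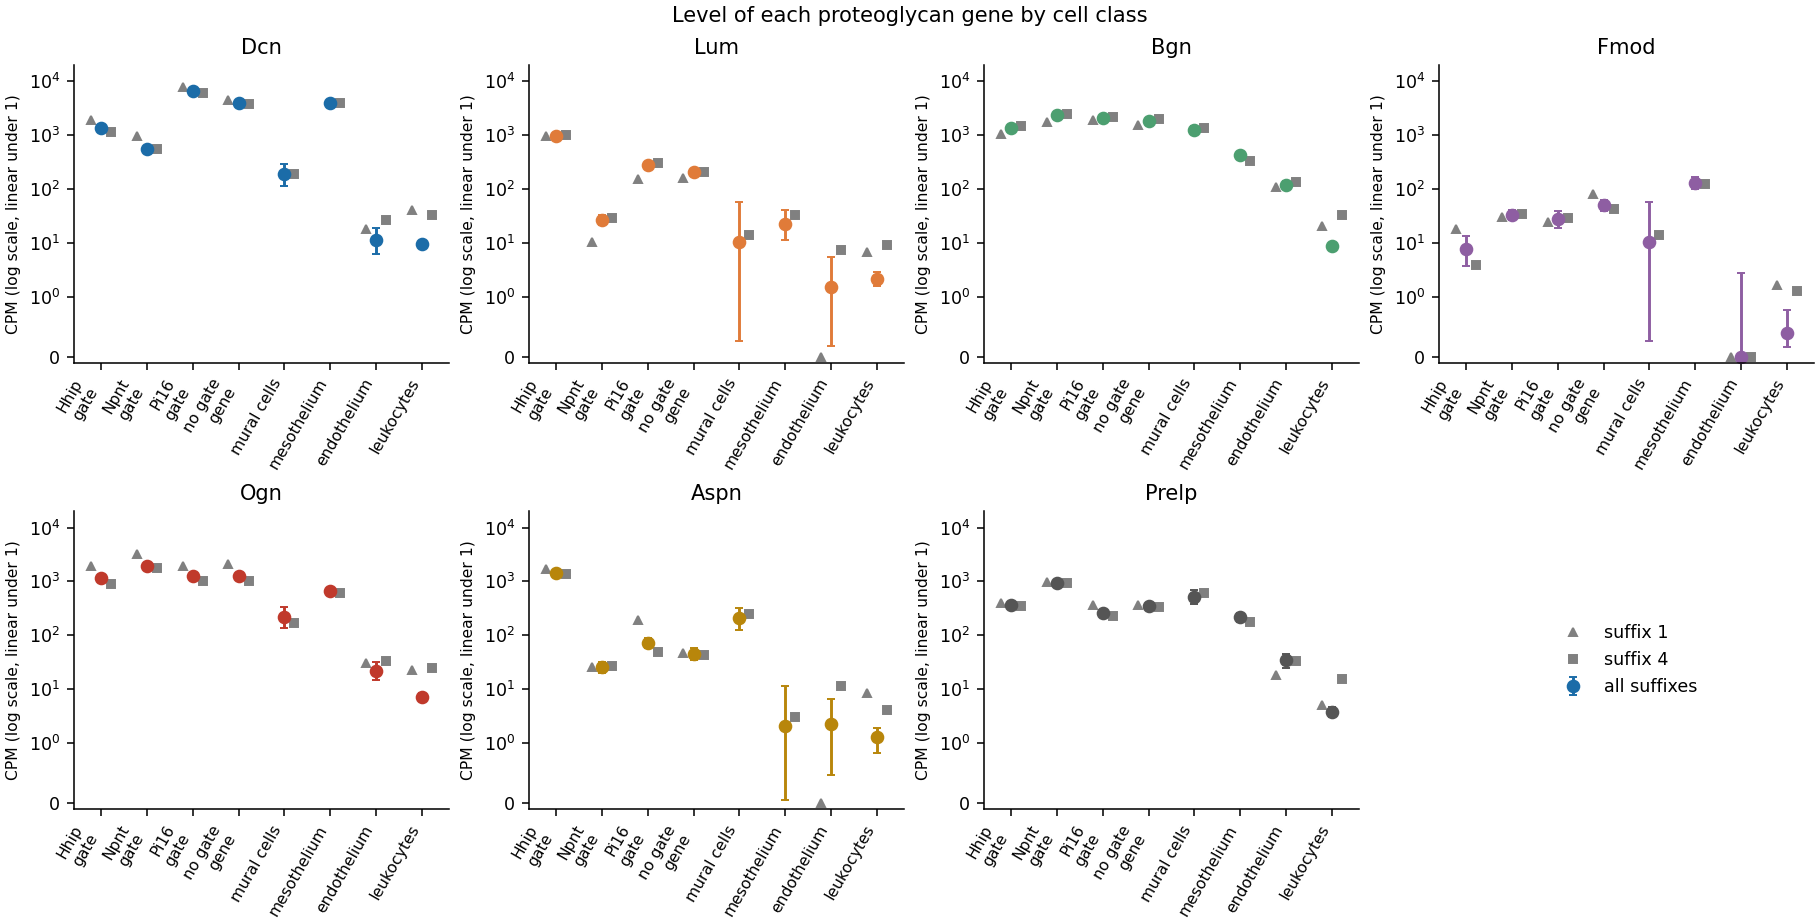
CPM of each gene (y axis, log scale, linear under 1) in 8 cell classes (x axis), with exact 95% Poisson intervals on the coloured points and suffixes 1 and 4 as grey triangles and squares where they hold 20 or more cells. Dcn spans from 6522 CPM in the Pi16 gate to about the leukocyte level in endothelium, Aspn stands apart in the Hhip gate, and Bgn stays above leukocytes in endothelium.

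The Hhip gate differed from all other fibroblasts mainly through Aspn and Lum. Aspn was 28.1-fold higher (log2 ratio 4.81, 4.65 to 4.98) and Lum 7.37-fold higher (2.88, 2.76 to 3.0). The other members were lower: Dcn 1.87-fold, with a log2 ratio of -0.90 (-0.97 to -0.83), Prelp -0.86, Bgn -0.71, Ogn -0.45 and Fmod -2.38 (-3.40 to -1.52, from 11 UMIs). Of 6 members at 50 CPM or more on either side, 2 were at least 2-fold higher and 0 lower, where 5.22% of 3486 genes were higher and 9.38% lower by that size. The median over the 7 members was -0.71 and over all these genes 0.05. Dcn passed 2-fold within suffix 1 (2.31-fold lower) and within suffix 4 (2.01-fold lower), and not when all suffixes were pooled. Against single gates the Hhip gate held 2.48-fold more Dcn than the Npnt gate and 1.42-fold more Prelp than the Pi16 gate.

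The Npnt gate was the opposite for the same pair. Aspn (log2 ratio -4.19, -4.54 to -3.87) and Lum (-4.06, -4.39 to -3.74) were 18.3-fold and 16.7-fold lower than in other fibroblasts, and Dcn 6.24-fold lower (-2.64). Prelp was 2.40-fold higher (1.26, 1.18 to 1.35), Ogn 1.53-fold and Bgn 1.26-fold higher, and Fmod differed by less than its counting error (-0.04, -0.41 to 0.32). Thus 1 of 6 members was at least 2-fold higher and 3 lower, beside 6.63% and 4.06% of 3395 genes. The median over all 7 members, -0.04 beside 0.02, is the value of Fmod, which was under 50 CPM on both sides. Aspn and Lum reached 50 CPM through the other fibroblasts alone, so they had to be lower to be counted. Against each other, the Hhip gate held 56.3-fold more Aspn and 36.9-fold more Lum than the Npnt gate.

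The Pi16 gate stood out by Dcn alone on the higher side. Dcn was 3.83-fold higher than in other fibroblasts (log2 ratio 1.94, 1.90 to 1.98), and 11.7-fold higher than in the Npnt gate. Bgn (-0.00, -0.06 to 0.06) and Lum (-0.03, -0.21 to 0.14) did not differ beyond counting error, but the Lum ratio was -1.49 within suffix 1 and 0.21 within suffix 4. Aspn (-2.22) and Prelp (-1.37) were lower. The other fibroblasts are a mix of unlike sets. Lum in the Pi16 gate was 3.51-fold below the Hhip gate and 10.5-fold above the Npnt gate. Aspn was 19.9-fold below the Hhip gate, but 2.83-fold above the Npnt gate and 1.65-fold above cells with no gate gene. Within suffix 1 the folds above the Npnt gate and above cells with no gate gene were 7.45 and 4.05. Within suffix 4 they were 1.8 and 1.16, and the Pi16 gate and cells with no gate gene did not differ beyond counting error there. Of the 83 Aspn UMIs of the Pi16 gate, 16 came from 1 cell. Of 6 members 1 was at least 2-fold higher and 2 lower, beside 4.26% and 5.53% of 3379 genes. The median over all 7 members, -0.31 beside -0.01, is again the value of Fmod, under 50 CPM on both sides.

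**Figure D4:**
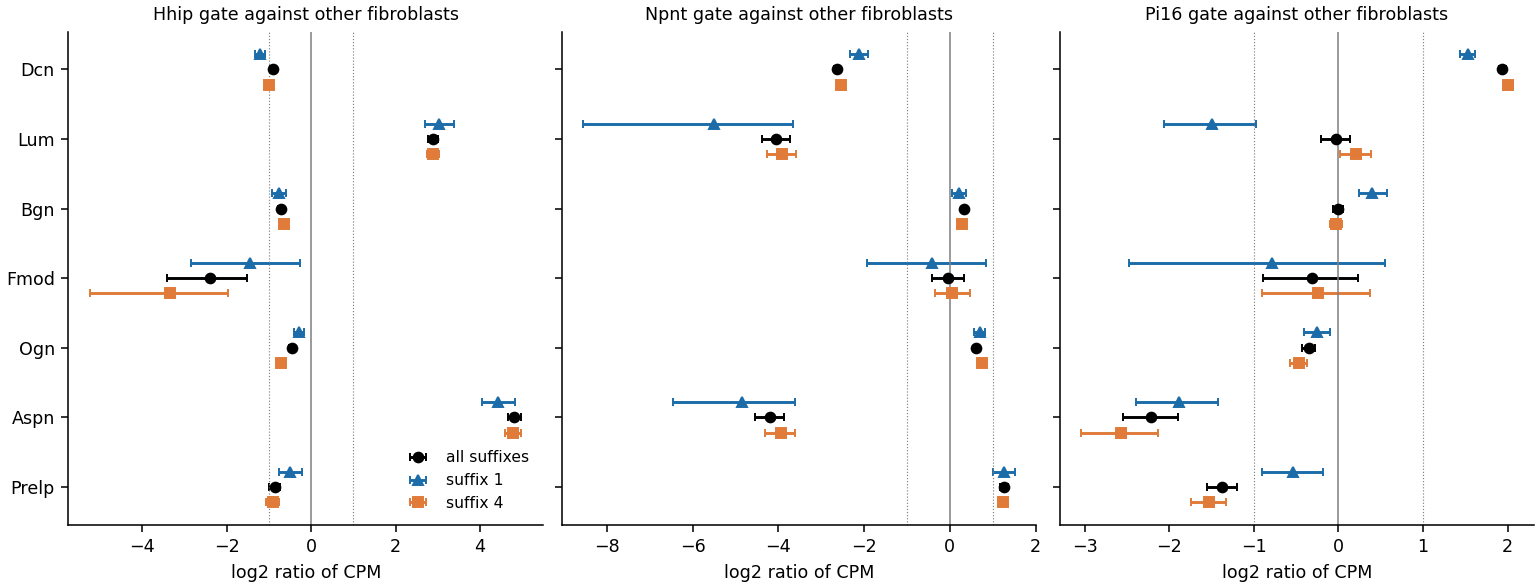
log2 ratio of CPM (x axis) of each gene (y axis) in a gate against all other fibroblasts, for all suffixes and within suffixes 1 and 4, with exact conditional 95% intervals and dotted lines at 2-fold. Aspn and Lum lie far to the right in the Hhip gate and far to the left in the Npnt gate, and Dcn lies to the right in the Pi16 gate.

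Mural cells held less of most members than fibroblasts did. Lum (-4.78, from 1 UMI), Dcn (-3.66, -4.41 to -3.00) and Ogn (-2.80, -3.49 to -2.18) were lower in log2 ratio, while Bgn (-0.75), Aspn (-0.53, -1.25 to 0.10) and Prelp (-0.21, -0.64 to 0.19) were closer to fibroblasts. Of 6 members 0 were at least 2-fold higher and 3 lower, beside 22.2% and 11.7% of 4355 genes. The median over all 7 members, -1.70 beside 0.31, is the value of Fmod, from 1 mural UMI (-7.01 to 0.79). Lum reached 50 CPM through fibroblasts alone, so it had to be lower to be counted. Without suffix 4, which leaves 14 mural cells, 5 were lower, with Aspn at -2.53 and Prelp at -1.28. Mesothelium held more Fmod (1.93, 1.51 to 2.33) and Dcn (0.72, 0.65 to 0.79) than fibroblasts and less of the other members, from -1.21 for Ogn to -7.18 for Aspn. Of 7 members 1 was at least 2-fold higher and 5 lower, beside 13.3% and 14.1% of 3785 genes, with a median of -1.48 beside 0.07. Fmod reached 50 CPM through mesothelium alone, so it had to be higher to be counted, and Aspn and Lum through fibroblasts alone, so they had to be lower.

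Within the 444 fibroblasts with no gate gene, Dcn and Aspn were again uneven. Cells with Rbp4 or Adam23 (208 cells) held 4327 CPM of Dcn (4174 to 4485) and 11.5 CPM of Aspn (4.96 to 22.6). Cells with none of the further gene pairs (157) held 5045 CPM of Dcn (4827 to 5270.3) and 120.5 CPM of Aspn (88.8 to 159.7, from 13 cells). Cells with Cdh22 or Kcnk2 (14) and with Adh7 or Notum (13) held 2427 and 2384 CPM of Dcn, which did not differ beyond counting error. Both held 0 UMIs of Aspn, which allows up to 73.4 and 88.8 CPM. Bgn ranged only from 1614 to 2083 CPM over these subsets.

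Fibroblasts of suffixes 1 and 4 differed in the same direction across sets for 5 members. Ogn was higher in suffix 1 in 5 of 5 sets, with log2 ratios of 0.67 to 1.13. Dcn (0.25 to 0.98) and Prelp (0.10 to 0.71) were also higher in suffix 1 in 5 of 5 sets, and Bgn (-0.51 to -0.15) and Lum (-1.52 to -0.08) were lower in 5 of 5. The Prelp interval lay above 0 in the Pi16 gate (0.71, 0.31 to 1.10) and spanned 0 in the other 4 sets. The Lum interval lay below 0 in the Pi16 gate alone, and the Bgn interval in 4 of 5 sets. Aspn was higher in suffix 1 in 3 sets and in suffix 4 in 2. Neither suffix can be placed at a day or a gate, and the sets share the libraries of their suffix, so these are differences between 2 parts of the table.

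**Figure D5:**
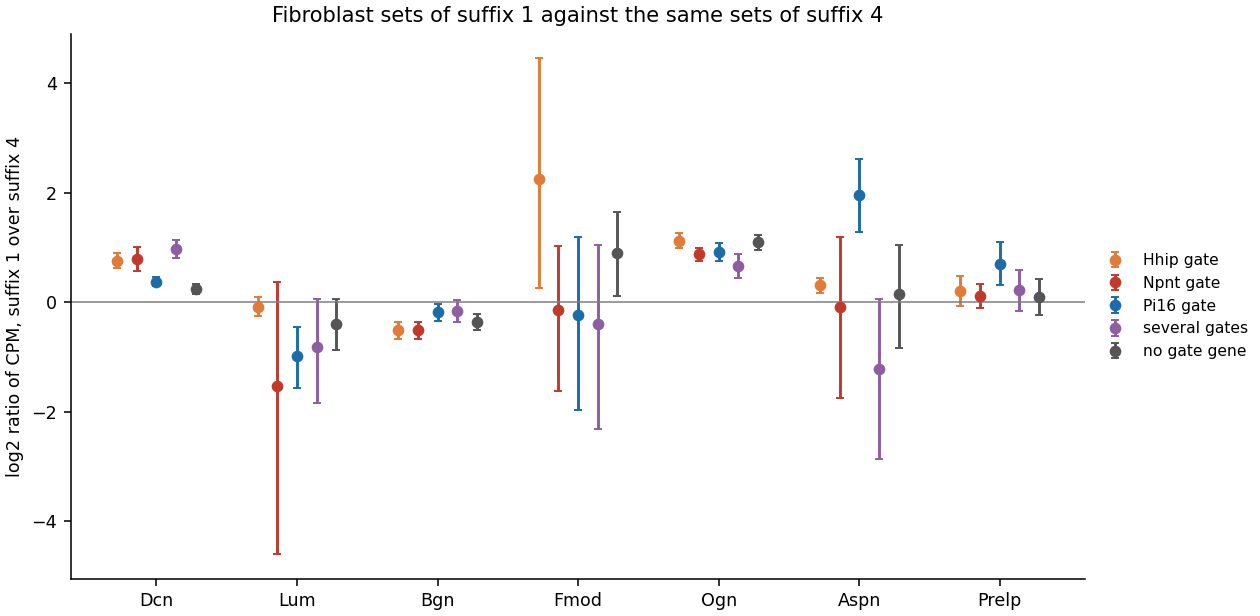
log2 ratio of CPM of suffix 1 over suffix 4 (y axis) for each gene (x axis) in 5 fibroblast sets, with exact conditional 95% intervals. Ogn and Dcn lie above 0 and Bgn below 0 in each of the 5 sets, while Aspn lies on either side.

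Other genes of the family were mostly scarce. Of 11 further small leucine-rich proteoglycan genes, 2 reached 50 CPM in the fibroblast comparisons. Ecm2, which encodes a relative of the asporin group, was 3.42-fold higher in the Hhip gate (275 CPM) and Podn (podocan) 2.80-fold lower there (35.3 CPM, so that it passed 50 CPM through the other fibroblasts alone). Podn was 2.06-fold higher in the Pi16 gate (157 CPM) and 3.51-fold higher in mesothelium (307 CPM). Kera had 0 UMIs in all classes, and Epyc, Optc and Nyx stayed at or below 2.08 CPM. Podnl1 stood at 13.6 CPM in leukocytes and at most 0.692 CPM elsewhere.

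The genes that build the sugar chains of these proteins were measured at low levels. At most 1 of 7 glycosaminoglycan linker genes reached 50 CPM in a comparison, and none was 2-fold apart. Of 16 chondroitin and dermatan sulfate genes 5, 4 and 4 were measured in the Hhip, Npnt and Pi16 comparisons. Csgalnact1, which starts chondroitin chains, was 5.89-fold higher in the Hhip gate (87.2 CPM), and the chondroitin sulfotransferase gene Chst3 was 19.1-fold higher in the Npnt gate (57.2 against 3.0 CPM). Of 8 keratan sulfate genes, B4galt1 was 2.08-fold lower in the Hhip gate and the sulfotransferase gene Chst2 2.29-fold higher in the Npnt gate and 3.79-fold higher in mural cells. Chst5 stood at 83.7 CPM in mural cells and at 0 UMIs in fibroblasts, and Chst1 at 156 CPM in endothelium. Of the tyrosine sulfation pair Tpst1 and Tpst2, 1 gene was measured, with no 2-fold difference. Among the large chondroitin sulfate proteoglycans only Vcan (versican) was measured, 2.63-fold lower in the Npnt gate. Csgalnact1, Chst3, Chst2, Chst5 and Vcan each passed 50 CPM on 1 side of these comparisons alone, which fixed their direction.

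Of the collagens that these proteins are known to bind, 1 of 10 was higher and 1 lower in the Hhip gate, where Col12a1 was 6.30-fold higher and Col1a2 2.12-fold lower. In the Npnt gate 1 of 9 was lower (Col14a1, 4.05-fold), and in the Pi16 gate Col14a1 was 3.22-fold higher and Col6a3 2.02-fold lower. In mural cells 5 of 9 collagens were lower and in mesothelium 6 of 9, beside 11.7% and 14.1% of all measured genes. Fibroblasts were chosen by Col1a2 and Col3a1, so these counts in mural cells and mesothelium are not independent of how the classes were made. Among proteases known to cut these proteins, Mmp3 was 4.56-fold and Mmp2 3.47-fold lower and Adamts1 2.64-fold higher in the Hhip gate. In the Pi16 gate 3 of 6 were higher, namely Adamts5 (3.31-fold), Mmp3 (2.79-fold) and Bmp1 (2.71-fold), and in the Npnt gate Adamts5 was 3.73-fold and Mmp3 2.32-fold lower. Of 4 measured receptor genes in each fibroblast comparison, the hyaluronan receptor gene Cd44 was 2.11-fold higher in the Hhip gate and none differed in the other gates. Of the TGF-beta response list, Tgfbi was 2.77-fold higher and Ctgf 2.28-fold lower in the Hhip gate. The list had 1 of 7 higher and 1 lower in the Npnt gate (Ltbp2 2.58-fold higher, Tgfbi 11-fold lower) and 1 of 6 higher in the Pi16 gate (Tgfbi 2.29-fold). Col12a1 in the Hhip gate, Tgfbi, Ltbp2 and Adamts5 in the Npnt gate and Bmp1 in the Pi16 gate passed 50 CPM on 1 side alone, which fixed their direction. The share of all genes past 2-fold in these gates was 4.06% to 9.38% in each direction, as given above.

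Over 26 profiles of a class in a suffix with 20 or more cells, genes with the most similar pattern differed between members. Likeness was Pearson's r of log2(CPM + 10) over 4483 genes. Closest to Dcn were Col14a1, Medag and Fbln1 (r of 0.97 each), closest to Lum were Cntfr (0.96), Hlf and Pde1a (0.91), and closest to Aspn were 6330403K07Rik (0.93) and Csmd1 (0.92). Bgn and Prelp shared Sparcl1 (0.99 and 0.97) and Fhl1 (0.98 and 0.97), with Eln (0.98) as the third gene for Bgn and Mxra8 (0.99) as the nearest gene to Prelp. Closest to Ogn were Sod3, Col1a1 and Col5a1 (0.98 each), and closest to Fmod were Bnc2 (0.96), Igfbp6 and C3 (0.94). With log2(CPM + 1) the nearest genes to Dcn were Mfap5 (0.96), Islr and Fbln1 (0.95), and Aspn and Lum had r of 0.93 with each other, which made Lum the nearest gene to Aspn. Among members, r was highest for Bgn and Prelp (0.96) over all profiles, where every pair had a positive r, the lowest being 0.39 (Fmod and Aspn). Over the 11 fibroblast profiles r was highest for Lum and Aspn (0.86), while Bgn and Prelp had 0.33 and Lum and Prelp -0.83. Profiles of 1 suffix share a library and classes were chosen by genes of the same cells, so these r describe the table and carry no test.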

How the data were processed

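Droplet UMI libraries (3′ end, version 2 chemistry, per the labels' protocols) were deposited by the authors as 1 table of whole UMI counts, 27998 genes by 10410 barcodes, with 35262820 UMIs (712 to 31034 per barcode). Per the submitters' processing notes, Cell Ranger 1.3.0 and STAR 2.5.1 were used with mm10. The authors' deposited normalized signal (each barcode scaled to 2631.5) equals the scaled counts to within 4.775e-12 and served as an alternative only.

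Kept barcodes (9994) had at least 500 genes and a mitochondrial share of 10% or less, and Scrublet (scanpy 1.11.5, per suffix) removed 75 doublets (0.75%), leaving 9919 cells with 34177581 UMIs. Classes needed a UMI in 2 or more of Higd1b, Cox4i2 and Notch3 (mural), Wt1, Upk3b and Msln (mesothelium), Pecam1, Cdh5 and Cldn5 (endothelium), Epcam, Cdh1 and Cldn18 (epithelium, 83 cells) or Ptprc, Laptm5, Coro1a and Cd52 (leukocyte). Cells with genes of several classes (217) and with no class (1000) were left out. The 217 include leukocyte, endothelial and epithelial cells with 3 or more UMIs of Col1a2 and Col3a1 together. For mural and mesothelial cells no such limit was set. Ratios used summed UMIs, and genes at 50 CPM or more on either side were measured. Intervals were exact Poisson for levels and exact conditional binomial for ratios (numpy 2.4.6, scipy 1.17.1). The ratio intervals were checked on simulated independent Poisson counts, the model that they assume. That check therefore does not cover UMIs that cluster in single cells. A fold with 0 UMIs on a side would use a floor of 3 UMIs. No test or p-value was computed.

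The members, gates and gene lists were chosen with earlier results of these data known. Named genes are the members, the 3 genes nearest to each member and up to 4 genes per list with the largest ratio; a few of these are not reported here. Marker symbols Ccl21a and Cnmd were not found. Alternatives were stricter gates, other filters and leaving out suffixes.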

Additional observations from a re-analysis of the deposited data

How the results depend on the processing

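No paired analysis was possible because the suffixes carry no replicate number and the result comes from no test. Of 53 recomputed counts of members at least 2-fold apart, 52 stayed within 1.5 times, and the count for mural cells was 5 without suffix 4. Of the log2 ratios recomputed under the alternatives, 361 kept their side of 2-fold, 7 passed it, 3 no longer passed it and none of those past it turned direction. Of the 35 ratios, 6 had both signs over the settings, each under 2-fold or under 50 CPM at the start: Lum, Bgn (-0.05 to 0.21) and Fmod (-1.19 to 0.02) in the Pi16 gate, Fmod in the Npnt gate (-0.53 to 0.39), and Prelp (-1.28 to 0.09) and Fmod (-3.68 to 1.76) in mural cells. Of the levels, 402 stayed within the interval of the reported value and 158 did not. The class with the highest level of each member was the same in all 11 settings, among the 8 classes without cells of several gates. The Dcn level of the Npnt gate ranged from 360.4 CPM (2 or more UMIs of Npnt) to 900.4 CPM (10 or more collagen UMIs). The log2 ratio of Dcn in the Hhip gate ranged from -1.42 to -0.72, of Lum in the Pi16 gate from -1.01 to 0.32 and of Prelp in the Npnt gate from 0.96 to 1.54, and the cause was not tested. Depth limits Fmod in the Hhip gate (11 UMIs, 3.78 to 26.7 CPM over the settings) and all members in mural cells (95554 UMIs).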
